A study of Mus musculus with 8 samples.

Results

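Elastic fibres are the recoiling element of the lung wall. Cells secrete tropoelastin, the soluble product of Eln, which gathers on a scaffold of fibrillin microfibrils with the help of fibulins and is then locked into an insoluble network by lysyl oxidases. These enzymes depend on copper and oxidise lysine side chains of elastin and fibrillar collagens so that neighbouring chains crosslink. In the developing lung, elastin is laid down mostly by mesenchymal cells at the sites where septa will grow, and Lox is also known as a gene induced by low oxygen.

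The genes described, chosen by name as a family and not selected on a threshold, are the lysyl oxidases Lox, Loxl1, Loxl2, Loxl3 and Loxl4, elastin (Eln), the fibulins Fbln5 and Efemp2 and the fibrillins Fbn1 and Fbn2. A gene was read from a probe set whose platform annotation names that gene and no other. Where several probe sets qualified, the one used was chosen by its mean over the 8 arrays, the highest being taken, which decided only Loxl4 (means of 6.77 and 4.84). The family was proposed with the rise of Lox in these arrays known. This gave values for 7 of the 10 genes, out of 19938 genes in all. Loxl2 lies on a probe set that also names another gene, and Efemp2 and Fbn1 had no probe set of their own in the annotation used. These 3 genes were not analysed here.

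RNA came from Epcam-positive epithelial cells, taken with magnetic beads from dissociated lungs of mouse embryos at day E18.5. In the 4 knockout arrays (Mst1/2 CKO), the Hippo kinases Mst1 and Mst2 had been removed with ShhCre, a Cre driven from the Shh gene, which is active in the lung epithelial progenitors and their descendants. The 4 other arrays are called control by the labels, which give no further genotype and do not say whether the controls carry ShhCre or floxed alleles. The labels call each array a biological replicate and do not say whether RNA of several embryos was pooled, so p-values set group differences against the spread between these arrays.

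Values are log2 expression, and a difference is knockout minus control, from 4 arrays of each kind, with the moderated standard error of limma (SE). Stk4, which encodes Mst1, read 9.24 to 9.45 in the knockout arrays, against 9.59 to 9.84 in the control arrays (difference −0.30, SE 0.076). Whether this probe set covers the exons removed is not known, and the gene of Mst2 was not analysed here. Array medians lay between 7.21 and 7.30. Epithelial markers were bright on every array, with a mean over 8 markers of 11.53 to 11.63 in knockout arrays and 11.43 to 11.55 in control arrays. Markers of other cell types also carried signal. The mean of 18 mesenchymal markers was 7.82, 7.88, 8.21 and 8.29 in knockout replicates 1 to 4, against 7.69, 7.69, 7.80 and 7.99 in control replicates 1 to 4. The mean of 8 endothelial markers was 9.53 to 9.62 in knockout arrays and 9.14 to 9.44 in control arrays, without overlap. In such bulk samples, fewer cells of a type and less RNA per cell cannot be told apart.

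All 7 measured genes had a positive difference, as did 8979 of all 19938 genes. Their median was 0.27, beside −0.02 over all genes. Lox, whose rise was known beforehand, is included in both. The 7 genes fell into unlike patterns. Lox was 4.39-fold higher in the knockout arrays and Fbln5 was 1.61-fold higher, each without overlap between the groups. Eln, Loxl1, Loxl3 and Loxl4 were highest in knockout replicates 3 and 4, which also had the highest means of mesenchymal, endothelial and mesothelial markers. Of the 7 genes, Loxl4 and Fbn2 differed least between the groups. In limma's test over all 19938 genes at an adjusted p of 0.05, 8.6% of genes were higher and 10.2% lower in the knockout arrays, 18.8% in all. By that rule Fbln5 was higher, and the other 5 of the 6 members besides Lox did not pass. Lox, whose rise was known when the family was chosen, is described without a test.

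**Figure D1:**
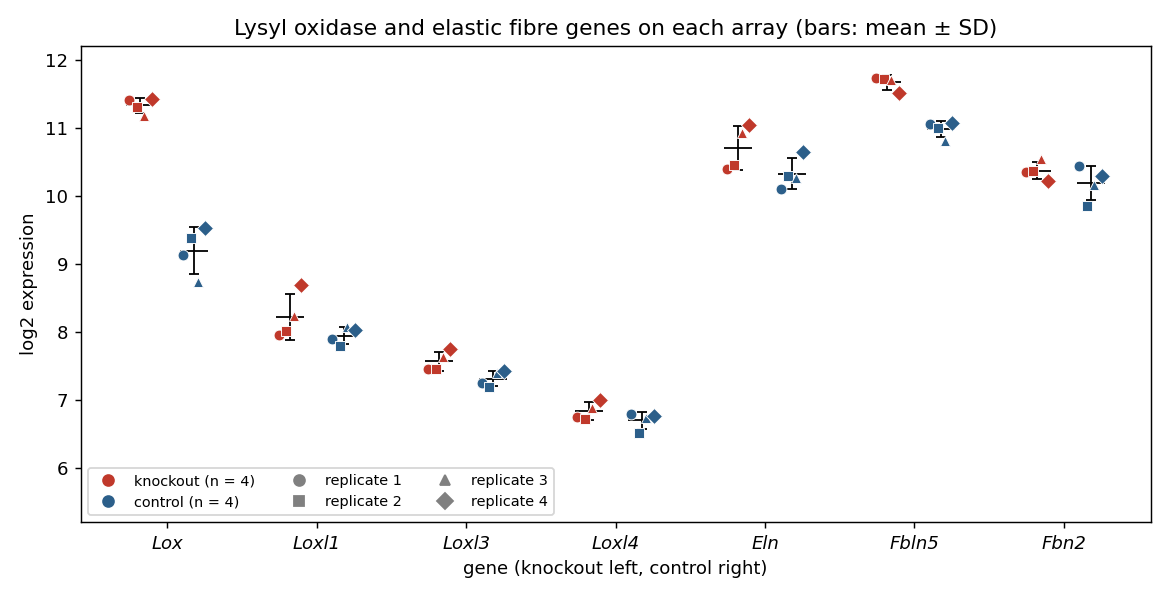
Log2 expression (vertical axis) of the 7 measured genes on each array, with knockout arrays in red on the left and control arrays in blue on the right of each gene; symbols mark the replicate, and bars give the mean ± SD of 4 arrays. Lox, Fbln5 and Loxl3 show no overlap between the groups, and heights should not be compared between genes because each probe set has its own brightness.

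Lox, the founding lysyl oxidase, crosslinks both collagen and elastin. It read 11.41, 11.31, 11.17 and 11.42 in knockout replicates 1 to 4, against 9.13, 9.38, 8.73 and 9.53 in control replicates 1 to 4. The lowest knockout array stood well above the highest control array, and the knockout arrays were closer to each other than the control arrays were. Means were 11.33 ± 0.11 in knockout and 9.19 ± 0.35 in control arrays (SD, n = 4 each). The difference of 2.13 (SE 0.15) ranked 4 among the 19938 genes by size of the rise. With the mesenchymal marker mean of each array in the model the difference was 2.10 (SE 0.19), and over the 8 fits that leave out an array it lay between 1.98 and 2.24.

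The paralogues of Lox changed far less. Loxl1, which binds fibulin-5 and is needed for elastic fibre upkeep in mice, read 7.95, 8.01, 8.23 and 8.69 in knockout replicates 1 to 4, against 7.90, 7.78, 8.07 and 8.02 in control replicates 1 to 4. Knockout replicates 1 and 2 lay within the range of the control arrays, while replicates 3 and 4 lay above it. The difference was 0.27 (SE 0.14, 95% interval −0.05 to 0.59) and did not pass limma's test (adjusted p = 0.244). It was 0.12 without knockout replicate 4 and ranged up to 0.37 without knockout replicate 1. With the mesenchymal marker mean in the model it was −0.018 (SE 0.11).

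Loxl3, a lysyl oxidase with scavenger receptor domains, read 7.45, 7.45, 7.62 and 7.74 in knockout replicates 1 to 4, against 7.25, 7.19, 7.39 and 7.42 in control replicates 1 to 4. The groups did not overlap, though knockout replicates 1 and 2 stood barely above the highest control array. Groups that do not overlap, with the knockout arrays higher, were found for Fbln5 and Loxl3, 2 of the 6 members other than Lox, and for 10.2% of all genes (22.1% in either direction). The difference of 0.25 (SE 0.083, 95% interval 0.07 to 0.44) narrowly missed the threshold in limma's test (adjusted p = 0.0570). Among the fits that leave out an array it passed only without knockout replicate 1 (0.29, adjusted p = 0.0498). It was 0.20 (adjusted p = 0.104) without knockout replicate 4 and 0.21 (adjusted p = 0.136) without control replicate 2. With the mesenchymal marker mean in the model it was 0.094 (SE 0.069).

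Loxl4, from the same branch of the family as Loxl3, read 6.75, 6.72, 6.88 and 6.997 in knockout replicates 1 to 4, against 6.79, 6.52, 6.74 and 6.76 in control replicates 1 to 4. The groups overlapped and the difference of 0.14 (SE 0.083, 95% interval −0.05 to 0.32) did not pass limma's test (adjusted p = 0.327). Without control replicate 2 the difference was 0.075, and without knockout replicate 4 it was 0.082. With the mesenchymal marker mean in the model it was 0.0097 (SE 0.086). Its dimmer probe set, at 4.87 in knockout and 4.81 in control arrays, differed by 0.06 (SE 0.059). The table carries no detection call, so whether either probe set was above background is not known.

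Fbln5 encodes fibulin-5, a secreted protein that binds tropoelastin and cell surface integrins and without which mouse elastic fibres are disorganised. It read 11.73, 11.72, 11.70 and 11.51 in knockout replicates 1 to 4, against 11.05, 10.99, 10.80 and 11.06 in control replicates 1 to 4. All knockout arrays lay above all control arrays, and replicates 1 to 3 lay within a few hundredths of each other. Means were 11.66 ± 0.11 in knockout and 10.98 ± 0.12 in control arrays (SD, n = 4 each). The difference of 0.69 (SE 0.077, 95% interval 0.52 to 0.86) passed limma's test (adjusted p = 1.35e-04). With the mesenchymal marker mean in the model the difference was 0.74 (SE 0.096, adjusted p = 8.92e-04). The mean of the 8 endothelial markers differed between the groups in the same direction as Fbln5, and 5 of these markers passed. With their mean in the model, a fit chosen after the data were seen, the difference was 0.56 (SE 0.16) and no longer passed (adjusted p = 0.197).

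The sequence before the annotated start of Fbln5 is shown because it is the member other than Lox that rose, next to that of Loxl4, a paralogue of Lox that did not pass. The 300-base windows are from RefSeq on GRCm38.p6, with 250 bases before and 50 after the start. Fbln5 is at chr12:101819070-101819369 and Loxl4 at chr19:42612757-42613056, both on the minus strand and written 5′ to 3′. Capitals mark GC boxes, the letters GGGCGG or their reverse complement CCGCCC, which are bound by Sp factors.
Fbln5: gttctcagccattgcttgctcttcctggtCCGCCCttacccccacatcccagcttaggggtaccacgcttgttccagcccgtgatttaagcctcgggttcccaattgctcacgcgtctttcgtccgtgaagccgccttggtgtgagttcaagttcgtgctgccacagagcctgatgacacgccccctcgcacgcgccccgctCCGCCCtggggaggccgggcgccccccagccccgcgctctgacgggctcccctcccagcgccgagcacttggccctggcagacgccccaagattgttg
Loxl4: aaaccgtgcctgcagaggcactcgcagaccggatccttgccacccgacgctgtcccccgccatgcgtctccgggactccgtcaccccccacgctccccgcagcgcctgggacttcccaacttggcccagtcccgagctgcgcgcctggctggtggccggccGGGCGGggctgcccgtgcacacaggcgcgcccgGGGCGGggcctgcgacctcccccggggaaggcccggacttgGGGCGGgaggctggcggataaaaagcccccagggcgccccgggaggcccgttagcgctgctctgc

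The Fbln5 window held 2 GC boxes and the Loxl4 window 3, while 35.7% of 32851 such windows in the genome hold at least 1. The core of the site bound by Tead factors, the DNA-binding partners of Yap and Taz (GGAATG on either strand), was in neither window, nor in the window of a second annotated Fbln5 start. That motif is in 14.7% of all windows. The absence of these letters from so short a stretch says nothing about binding elsewhere.

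Eln encodes tropoelastin itself. It read 10.39, 10.45, 10.92 and 11.04 in knockout replicates 1 to 4, against 10.10, 10.28, 10.26 and 10.64 in control replicates 1 to 4. Knockout replicates 1 and 2 lay below the highest control array, and replicates 3 and 4 above all control arrays. The difference was 0.38 (SE 0.16, 95% interval 0.03 to 0.73, not adjusted for the number of genes) and did not pass limma's test (adjusted p = 0.132). It was 0.27 (SE 0.15) without knockout replicate 4 and 0.49 (SE 0.16) without control replicate 4, and passed in no fit that leaves out an array. The arrays with the most Eln in each group were knockout replicates 3 and 4 and control replicate 4. These arrays had the highest marker means of their group for mesenchymal cells, and equally for endothelial cells (9.59 and 9.62 in knockout replicates 3 and 4, 9.44 in control replicate 4) and mesothelial cells (9.01 and 9.27 in knockout replicates 3 and 4, 8.99 in control replicate 4). With the mesenchymal mean in the model the difference was 0.01 (SE 0.077, adjusted p = 0.952).

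Fbn2 encodes fibrillin-2, a microfibril protein used most in fetal tissue. It read 10.35, 10.37, 10.54 and 10.22 in knockout replicates 1 to 4, against 10.44, 9.85, 10.16 and 10.28 in control replicates 1 to 4. The groups overlapped, with control replicate 2 lowest. The difference was 0.19 (SE 0.12, 95% interval −0.07 to 0.44; limma adjusted p = 0.342). It was 0.074 (SE 0.092) without control replicate 2 and 0.27 (SE 0.11) without control replicate 1.

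**Figure D2:**
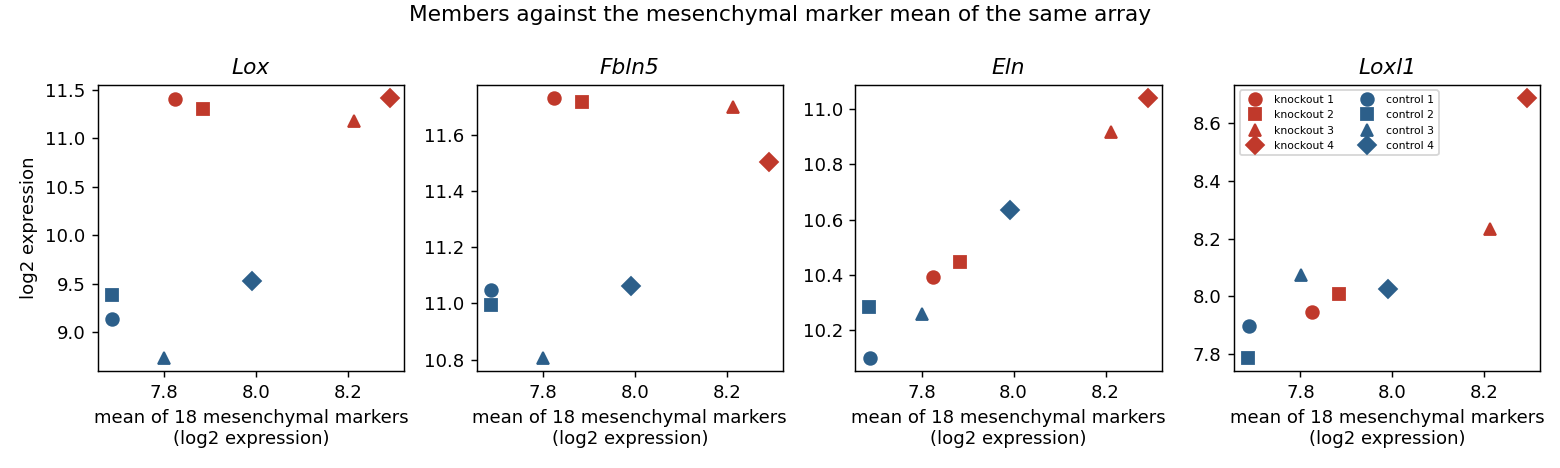
Log2 expression of Lox, Fbln5, Eln and Loxl1 (vertical axes) against the mean log2 expression of 18 mesenchymal markers on the same array (horizontal axes), with 4 knockout arrays in red and 4 control arrays in blue. Lox and Fbln5 are higher on every knockout array than on any control array. Marker means ran from 7.69 to 7.99 in control and from 7.82 to 8.29 in knockout arrays, so the groups share only part of the marker range. Eln and Loxl1 are highest in knockout replicates 3 and 4, the arrays with marker means of 8.21 and 8.29.

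These markers were named after their values were seen, and of all genes 8.6% were higher and 10.2% lower. Of the mesenchymal markers 2 of 18 were higher in knockout arrays, 0 were lower and 16 did not pass, with 6 higher without knockout replicate 1, 5 without control replicate 4 and 0 to 1 in the other 6 fits that leave out an array. The 2 were Pdgfrb (0.57, SE 0.16) and Cspg4 (0.47, SE 0.12), genes of pericytes and fibroblasts. Pdgfrb did not pass when control replicate 1, 2 or 3 or knockout replicate 2, 3 or 4 was left out (0.47 to 0.59), nor did Cspg4 without control replicate 1 or 2 or knockout replicate 2 or 3 (0.41 to 0.47). The smooth muscle gene Tagln differed by −0.11 (SE 0.088). Of the endothelial markers 5 of 8 were higher and 3 did not pass. Vwf was at 0.50 (SE 0.077), Pecam1 at 0.44 (SE 0.098), Cdh5 at 0.15 (SE 0.094) and Emcn at −0.075 (SE 0.12). The count of higher endothelial markers was 4 when control replicate 1, 2 or 3 or knockout replicate 1, 2 or 3 was left out. Without control replicate 4 it was 6, and without knockout replicate 4 it was 5. Of 6 mesothelial markers 1 was higher, Msln (0.75, SE 0.065), and the mean of the list was 8.81 to 9.27 in knockout arrays and 8.45 to 8.99 in control arrays. Among the knockout arrays Msln was lowest in replicate 4 (12.52, the others 12.60), the array with the highest mean of the list. Whether the Msln signal came from mesothelial cells was not tested. Of 8 leukocyte markers 1 was higher, Itgam (0.56, SE 0.17). It missed the threshold if control replicate 1, 3 or 4 or knockout replicate 2, 3 or 4 was left out (0.47 to 0.57). Of these 8 markers 5 had a positive difference and 3 a negative one, with Laptm5 lowest (−0.28, SE 0.17). The leukocyte mean was 9.14 to 9.45 in knockout arrays and 8.70 to 9.70 in control arrays. The part that other cells have in the differences of the members was not tested beyond the fits with a marker mean.

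With the endothelial mean in the model Lox was 1.58 higher (SE 0.25), while Eln (−0.22, SE 0.27), Loxl1 (−0.020, SE 0.30), Loxl4 (−0.061, SE 0.17) and Fbn2 (−0.033, SE 0.25) had a negative difference with an SE larger than its size, and Loxl3 was at 0.050 (SE 0.17). Because this mean does not overlap between the groups, it takes up much of the contrast itself: with it, 52 of 19938 genes were higher and 83 lower, against 1715 and 2031 without it.

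**Figure D3:**
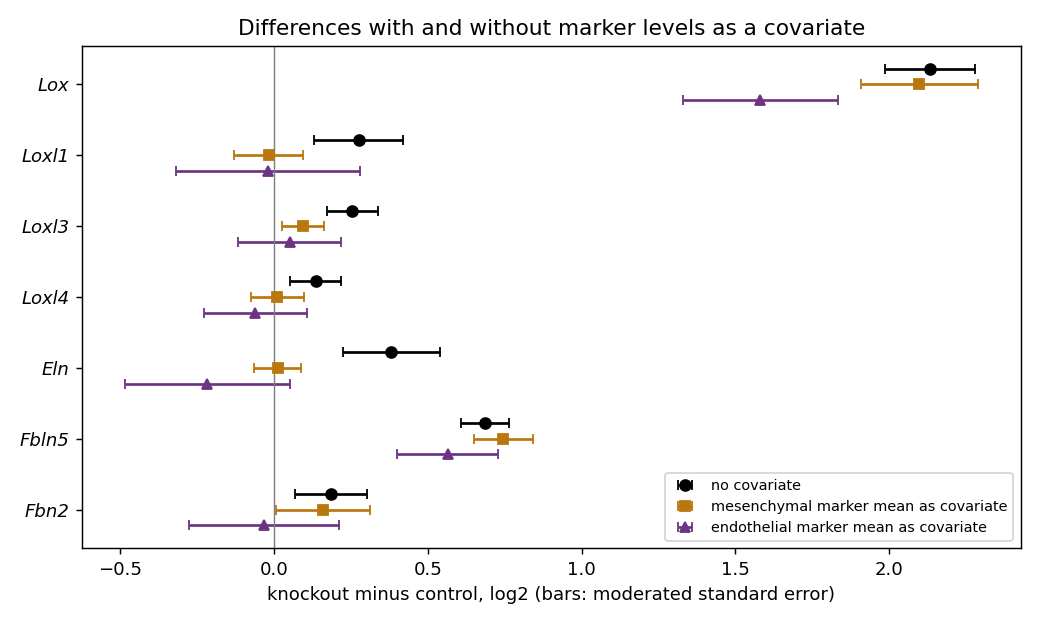
Knockout minus control differences on the log2 scale (horizontal axis, bars are the moderated standard error) of the 7 genes with no covariate (black circles), with the mesenchymal marker mean (orange squares) and with the endothelial marker mean (purple triangles) in the model. Lox and Fbln5 are positive in all 3 fits, and Eln, Loxl1 and Loxl4 lie near 0 or below it once either mean is included.

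The genes whose profile was closest to that of Lox were Scel, Ddah1, Calcr, Igfbp2 and AU018091. Likeness was the root mean square difference over the 8 arrays after each gene was centred on its control mean, and it ran from 0.14 for Scel to 0.31 for AU018091. Scel, sciellin of the cornified envelope of stratified epithelia, was 2.00 higher in knockout arrays (SE 0.15) and, like Lox, lowest in control replicate 3 and highest of the controls in replicate 4. Igfbp2, which binds insulin-like growth factors and marks alveolar type 1 cells in mice, was 2.35 higher (SE 0.065), and Calcr, the calcitonin receptor, 1.92 higher (SE 0.082). A large rise is what brings a gene near Lox by this measure.

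The genes closest to Eln were Myh11, Tmtc1, Mical3, Meis1 and Col3a1, at root mean square differences of 0.04 to 0.08. Myh11, the myosin heavy chain of smooth muscle, differed by 0.42 (SE 0.16, limma adjusted p = 0.101), and Col3a1, a fibrillar collagen of fibroblasts, by 0.39 (SE 0.14, adjusted p = 0.0879). Both were highest in knockout replicates 3 and 4. Genes chosen for a profile this close to that of Eln share its high and low arrays by construction. Myh11 is also among the 18 mesenchymal markers.

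**Figure D4:**
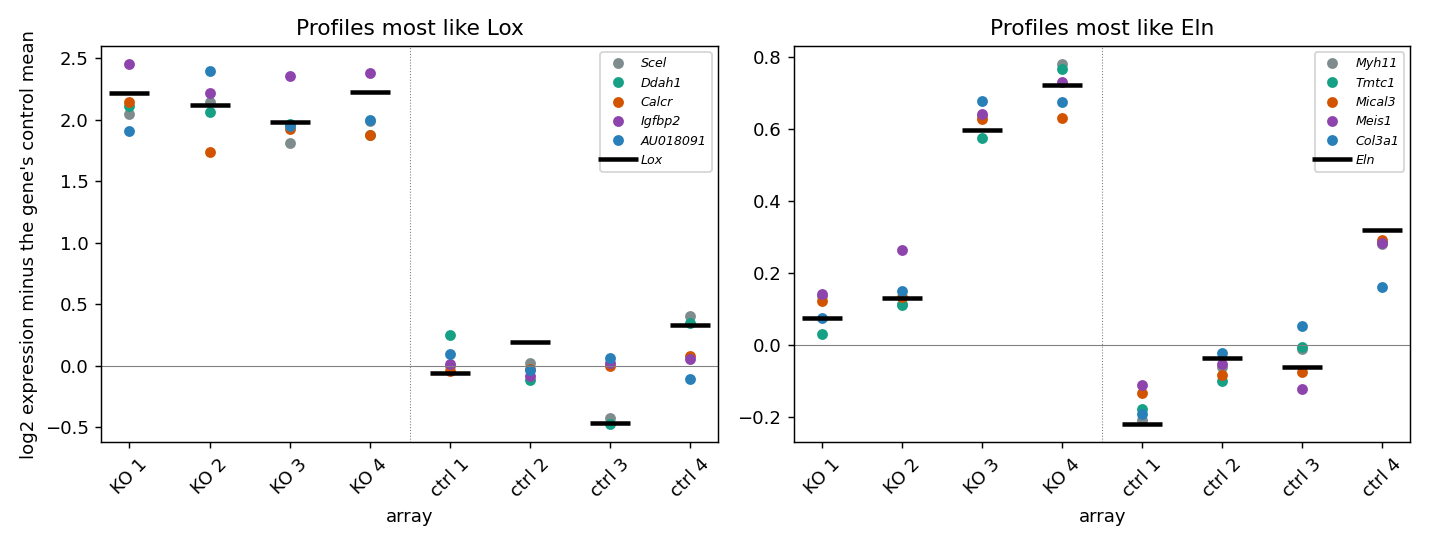
Log2 expression minus each gene's own control mean (vertical axis) on the 4 knockout (KO) and 4 control (ctrl) arrays, for Lox with its 5 most similar genes (left) and Eln with its 5 (right); black bars are Lox and Eln and points are the other genes. The Lox group stands between 1.74 and 2.45 on the knockout arrays, whereas the Eln group stands between 0.03 and 0.26 on knockout replicates 1 and 2 and at 0.57 or more on replicates 3 and 4.

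Genes that build the scaffold around elastin were mixed. Of 25 measured partners of elastic fibres and microfibrils 6 were higher, 2 were lower and 17 did not pass, and the median difference was 0.24. The shares were 24% higher and 8% lower, beside 8.6% and 10.2% of all genes. Vcan, the proteoglycan versican, was 1.51-fold higher (0.60, SE 0.086, limma adjusted p = 6.44e-04). It read 7.69 to 8.10 in knockout arrays, against 7.35 to 7.38 in control arrays. Adamtsl4 and Adamts10, secreted proteins that bind fibrillin microfibrils, were both 1.42-fold higher (0.51, SE 0.075 and 0.51, SE 0.082). Adamts6, a protease related to Adamts10, moved the other way and was 2.79-fold lower (−1.48, SE 0.12, adjusted p = 2.37e-05), at 7.04 to 7.37 in knockout arrays, against 8.31 to 8.91 in control arrays. Ltbp3, a binding protein of latent TGF-beta with the highest mean of the list, was 1.22-fold lower (−0.29, SE 0.068) and did not pass with the mesenchymal mean in the model (−0.26). Adamtsl5, Hmcn1 and Efemp1 rose too and were picked out once values were known: Adamtsl5 by 0.41 (SE 0.069), Hmcn1 by 0.87 (SE 0.17) and Efemp1 by 0.47 (SE 0.12). Efemp1 no longer passed without control replicate 2 (0.43), control replicate 3 (0.39) or knockout replicate 2 (0.43), nor with the mesenchymal mean in the model (0.50). The microfibril proteins Mfap4 (0.42, SE 0.18, adjusted p = 0.137) and Mfap2 (0.24, SE 0.13, adjusted p = 0.251), also named after their values were seen, did not pass and were highest in knockout replicates 3 and 4. With the mesenchymal mean in the model 5 partners were higher and 1 lower, and the median was 0.01. Without knockout replicate 1, 10 were higher, and without knockout replicate 4 the median was 0.13.

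Genes that activate lysyl oxidases or supply their copper moved both ways. Of 13 measured 3 were higher, 4 were lower and 6 did not pass, which is 23.1% higher and 30.8% lower, beside 8.6% and 10.2% of all genes. The median difference was −0.05, ranging between −0.088 without knockout replicate 4 and −0.036 without knockout replicate 1. Bmp1, the protease that cuts the propeptide from pro-Lox and from procollagens, was 1.45-fold lower (−0.54, SE 0.079, limma adjusted p = 7.54e-04), at 10.32 to 10.51 in knockout arrays, against 10.79 to 11.12 in control arrays. Pcolce, which enhances Bmp1 on procollagens, was 1.88-fold higher (0.91, SE 0.094, adjusted p = 8.30e-05), at 10.04 to 10.31 in knockout arrays, against 9.02 to 9.41 in control arrays.

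The 2 copper transporters that bring the cofactor into the cell and into the secretory pathway both fell. Slc31a1, the copper importer Ctr1, was 1.83-fold lower (−0.87, SE 0.098, limma adjusted p = 1.39e-04), at 10.21 to 10.50 in knockout arrays, against 11.05 to 11.44 in control arrays. Atp7a, the pump that loads copper onto secreted enzymes including Lox, was 1.34-fold lower (−0.42, SE 0.067, adjusted p = 0.00127), at 9.77 to 10.03 in knockout arrays, against 10.33 to 10.40 in control arrays. With the mesenchymal mean in the model both calls held. The copper chaperone Atox1, named after its value was seen, did not pass (−0.09, SE 0.080, adjusted p = 0.547).

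Among proteins that bind Lox or Bmp1 in the matrix, Postn, periostin, was 2.06-fold higher (1.04, SE 0.21, limma adjusted p = 0.00611). Fn1, fibronectin, was 1.37-fold higher (0.46, SE 0.14, adjusted p = 0.0430), but it did not pass when control replicate 1, 2 or 3 or knockout replicate 2, 3 or 4 was left out (0.33 to 0.49), nor with the mesenchymal mean in the model (0.19). Thbs1, thrombospondin-1, which had the highest mean of the list, did not pass (−0.05, SE 0.082, adjusted p = 0.750). The fourth gene that fell was Fmod, fibromodulin (−0.32, SE 0.091), named after its value was seen, which did not pass when control replicate 1, 3 or 4 or knockout replicate 1 or 2 was left out (−0.27 to −0.31).

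Fibrillar collagens are the other substrate of lysyl oxidases. Of 20 measured collagens and collagen-modifying enzymes 6 were higher, 2 were lower and 12 did not pass. That is 30% higher and 10% lower, beside 8.6% and 10.2% of all genes. The median difference was 0.10, or 0.040 without knockout replicate 4. Members of the prolyl 4-hydroxylase family went in opposite directions. P4ha3 was 2.16-fold higher (1.11, SE 0.15, limma adjusted p = 5.53e-04), at 9.07 to 9.44 in knockout arrays, against 7.75 to 8.56 in control arrays. P4ha1 and P4ha2 were 1.32-fold and 1.30-fold lower (−0.40, SE 0.088 and −0.38, SE 0.074), and neither passed with the mesenchymal mean in the model (−0.31 and −0.26).

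Col5a2, a chain of type V collagen, was 1.80-fold higher (0.85, SE 0.13, limma adjusted p = 0.00121), and P3h1, a prolyl 3-hydroxylase, 1.24-fold higher (0.31, SE 0.056). Plod2, the lysyl hydroxylase of collagen telopeptides, whose product Lox can then act on, was 1.44-fold higher (0.52, SE 0.094) and the collagen chaperone Serpinh1 1.32-fold (0.40, SE 0.077), 2 genes picked out once values were known. The type I and III chains Col1a1 (0.46, SE 0.15, adjusted p = 0.0573), Col1a2 (0.49, SE 0.14, adjusted p = 0.0369) and Col3a1 shared the profile of Eln, highest in knockout replicates 3 and 4, and Col1a2 did not pass when control replicate 1, 2 or 3 or knockout replicate 3 or 4 was left out (0.39 to 0.46), nor with the mesenchymal mean in the model (0.15). The brightest gene of this list, the cyclophilin Ppib, did not pass (−0.39, SE 0.15, adjusted p = 0.114). It read 11.10 in knockout replicate 4, against 11.80 to 11.92 in the other knockout arrays and 11.90 to 12.12 in control arrays.

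**Figure D5:**
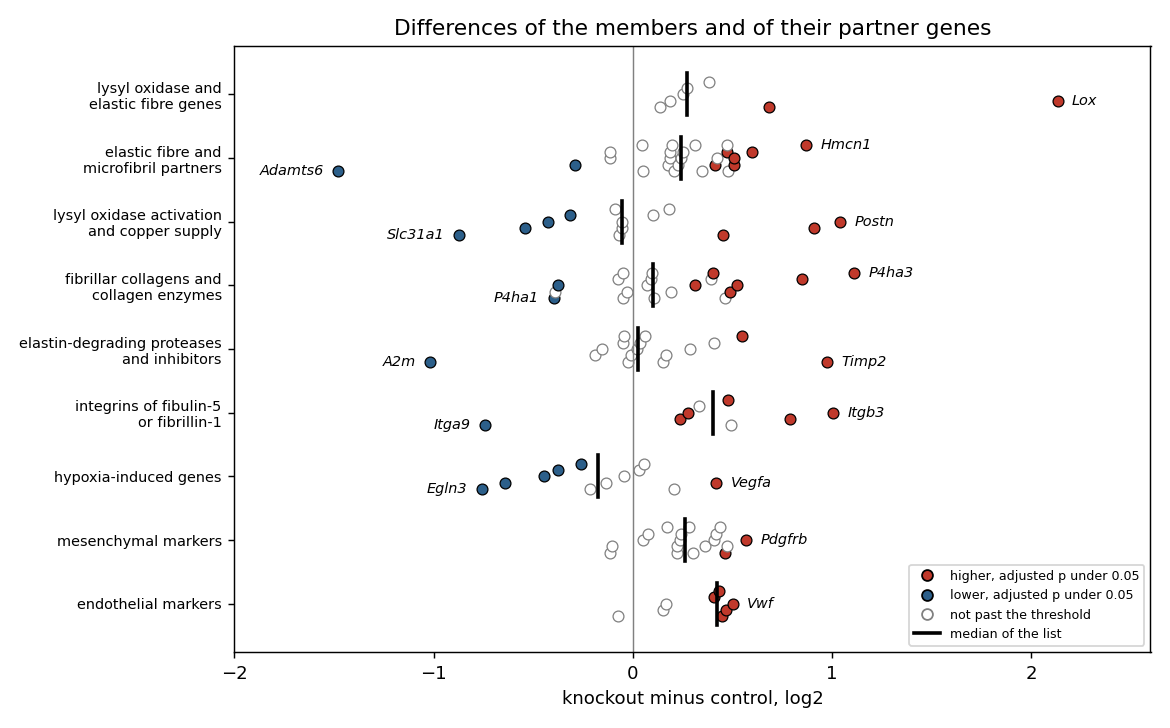
Knockout minus control differences on the log2 scale (horizontal axis) of every measured gene in each list, with red points higher and blue points lower at an adjusted p under 0.05, open points not past it, and a black bar at each list's median; the outermost genes that passed are named, and vertical offsets within a list only separate points. Lox, at 2.13, has the largest difference of all the genes drawn.

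Of 16 elastin-degrading proteases and inhibitors 2 were higher, 1 was lower and 13 did not pass. These shares, 12.5% higher and 6.25% lower, stand beside 8.6% and 10.2% of all genes. The median difference was 0.03, ranging between 0.0051 without knockout replicate 4 and 0.073 without knockout replicate 2. Timp2, an inhibitor of matrix metalloproteases, was 1.97-fold higher (0.98, SE 0.069, limma adjusted p = 1.20e-05), at 11.01 to 11.14 in knockout arrays, against 9.93 to 10.18 in control arrays. Mmp12, macrophage elastase, was 1.46-fold higher (0.55, SE 0.087) at low values of 6.51 to 6.86 in knockout arrays, against 6.08 to 6.23 in control arrays. The protease inhibitor A2m was 2.02-fold lower (−1.02, SE 0.069, adjusted p = 9.72e-06). Timp3, with the highest mean of the list, did not pass (0.15, SE 0.079, adjusted p = 0.238).

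Integrins that bind fibulin-5 or fibrillin-1 were mostly higher. Of 8 measured subunits 5 were higher, 1 was lower and 2 did not pass, and the median difference was 0.41. In this short list 62.5% were higher and 12.5% lower, beside 8.6% and 10.2% of all genes. Itgb3, the partner of the alpha-v chain, was 2.01-fold higher (1.01, SE 0.15, limma adjusted p = 9.21e-04), at 8.61 to 9.21 in knockout arrays, against 7.60 to 8.16 in control arrays. Itgb6, an epithelial partner of the same chain that activates TGF-beta and the brightest of the list, was 1.73-fold higher (0.79, SE 0.10, adjusted p = 3.22e-04). Itgb1 was 1.21-fold higher (0.28, SE 0.059) and Itga9 1.67-fold lower (−0.74, SE 0.076, adjusted p = 7.75e-05). Itgb5 (0.48, SE 0.11) and the alpha-v chain Itgav (0.23, SE 0.071) also rose and were picked out once values were known. Itgav did not pass when control replicate 1, 2 or 3 or knockout replicate 1 or 3 was left out (0.18 to 0.24), and with the mesenchymal mean in the model neither passed (0.43 and 0.16).

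Lox is a target of hypoxia-inducible factors, and other genes of that response were set beside it. Of 12 measured 1 was higher, 5 were lower and 6 did not pass, and the median difference was −0.17. As shares, 8.3% were higher and 41.7% lower, beside 8.6% and 10.2% of all genes. Without control replicate 4 the median was −0.10, with 2 genes higher and 4 lower. Egln3, an oxygen sensor that the response itself induces, was 1.69-fold lower (−0.76, SE 0.086, limma adjusted p = 1.45e-04), at 9.02 to 9.34 in knockout arrays, against 9.78 to 10.08 in control arrays. Bnip3, a mitophagy receptor, was 1.56-fold lower (−0.64, SE 0.067) and Higd1a, a mitochondrial protein, 1.36-fold lower (−0.45, SE 0.079). Vegfa, the endothelial growth factor and the brightest of the list, was 1.34-fold higher (0.42, SE 0.062, adjusted p = 7.51e-04), at 12.31 to 12.49 in knockout arrays, against 11.93 to 12.08 in control arrays. The other genes that fell, picked out once values were known, were Pdk1 (−0.37) and Kdm3a (−0.26). With the mesenchymal mean in the model neither passed (−0.27 and −0.18), which left 3 lower, and Kdm3a did not pass when any control replicate or knockout replicate 2 or 3 was left out (−0.24 to −0.28).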

How the data were processed

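Per the labels' protocols, total RNA of bead-selected Epcam-positive lung cells was labelled with biotin after Affymetrix protocols. The authors deposited 1 value for each of 35556 probe sets on each of the 8 arrays. The values were read as log2 expression from their range; for the deposited log2 table, the sources used here name no software, normalization or genome build. At every rank each array lay within 0.175 of the mean of the arrays, so no further scaling was applied, and differences are relative to the array as a whole. Symbols came from GEO's platform annotation, where 21789 probe sets have 1 symbol, 1621 several and 12146 none listed; 21698 of the first matched RefSeq by gene number.

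Differences were tested by limma 3.58.1 under R 4.3.3 (lmFit, then eBayes), two-sided, without covariate, and p-values adjusted by Benjamini-Hochberg over 19938 genes at 0.05, after a test on simulated data. The p-values printed are limma's; array number limits precision. Partner and marker lists were written by hand. Named were the members, the up to 3 strongest calls a direction and the brightest gene of each partner list, and the 5 genes most like Lox and like Eln. Members and lists were chosen with earlier results of these data known. Alternatives were a replicate block, other scalings, probe sets averaged or all tested, a filter on dim genes, another variance model, marker or Xist covariates and leaving out each array; the endothelial covariate was added after seeing the data.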

Additional observations from a re-analysis of the deposited data

Results flagged for a closer look

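In knockout replicate 4, Fbln5 read 11.51, while the other knockout arrays read 11.70 to 11.73. The gap to the nearest of them was 0.856 of the group's range, above Dixon's critical value for 4 samples. Among the 14 groups of values checked this was the only one so marked, and chance alone marks about 5% of groups. The array still lay above the highest control array, at 11.06, and without it the difference was 0.74 (SE 0.071, limma adjusted p = 8.37e-05). The same array had the highest means of mesenchymal (8.29), endothelial (9.62) and mesothelial (9.27) markers, whose part in this value was not tested.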

How the results depend on the processing

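Of 124 differences of single members, 18 of them of Lox, refitted under 18 alternatives, 114 kept their direction and their side of the threshold, 4 newly passed, 1 no longer passed and 5 changed sign. The 114 include all 18 of Lox, whose rise was known beforehand. Fbln5 kept both under all but the endothelial covariate, and the difference of Lox, given without a test, lay between 1.58 and 2.24. No member was lower at the threshold under any alternative. The same replicate number does not pair the arrays: same-numbered arrays had correlations of deviations from −0.08 to 0.10, and 1 of 4 knockout arrays was closest to its own number. With the replicate block, the members besides Lox that were higher were Fbln5, Eln (0.38, limma adjusted p = 0.0179) and Loxl3 (0.25, adjusted p = 0.0250). So were 10 elastic fibre partners against 6 and 9 mesenchymal markers against 2. Of all 19938 genes 1595 were higher and 1899 lower with the block, against 1715 and 2031 without it. Loxl3 also passed with arrays centred on their medians (0.24, adjusted p = 0.0475). With the mesenchymal marker mean the median difference of the members was 0.094, Loxl1 turned to −0.018, and 1075 of all genes were higher and 1268 lower, against 1715 and 2031. With the endothelial mean none of the members besides Lox passed, and the median of the members, Lox included, was −0.020. Loxl1 (−0.020), Loxl4 (−0.061), Eln (−0.22) and Fbn2 (−0.033) turned negative. No gene of the partner lists passed except 1 higher and 1 lower protease or inhibitor gene. The endothelial mean does not overlap between the groups, which leaves little contrast to fit. Among the members besides Lox, Fbln5 was higher in every fit that leaves out an array, and Loxl3 only without knockout replicate 1. The median of the members, Lox included, was 0.22 to 0.37 in these fits. Loxl3 and Loxl4 were not tested among genes above the median level. No signal over background is given, so small changes of dim genes may be missed.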
